A study of Homo sapiens with 8 samples.

Results

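DNA replication and nucleotide synthesis genes are described here in Alexander1 cells, an epithelial line established from a human hepatocellular carcinoma. The 51 genes were given as a list of symbols covering origin licensing, origin firing, the sliding clamp and its loader, replicative polymerases, flap removal and ligation, deoxynucleotide synthesis, topoisomerases and 2 E2F transcription factors. All 51 were found among the 58206 genes of the count table, and all 51 were among the 14289 genes that passed the expression filter and were tested. Levels are in CPM, that is, counts scaled for the size of each library, and differences are log2 fold changes of the restored-labelled over the parental libraries.

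The series compared the parental line, labelled wt (Axin1 -), with a derivative labelled Axin1 +, 4 libraries each. Both groups share the line's own deletion in AXIN1, which takes out the region that binds the kinase GSK3 and, per the series text, leaves Wnt signalling always on. The derivative received a full-length Axin1 plasmid by retrovirus and was selected as clones with hygromycin B. The number of clones behind the 4 libraries is not given in the sources used here, and the same treatment text stands on the parental samples. Neither do the labels say whether replicates were separate cultures, so p-values measure only the spread between these libraries.

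A cell copies its genome once per cycle. The origin recognition complex with CDC6 and CDT1 loads the MCM2 to MCM7 helicase onto DNA before S phase, the kinase CDC7 with DBF4 then allows CDC45 and the GINS complex to join it, and polymerases alpha, delta and epsilon synthesise DNA behind the opened fork. Many of these genes and those for deoxynucleotide supply are known E2F targets, induced as cells pass from G1 into S phase, and quiet in resting hepatocytes. Their RNA level in a culture therefore depends on how many of its cells are cycling. In RNA from whole cultures, fewer cells in S phase and less RNA per cell cannot be told apart.

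AXIN1 does not separate the labels. In order of replicate, the parental libraries held 55.3, 52.8, 47.4 and 54.2 CPM and the restored-labelled ones 47.6, 48.0, 48.2 and 37.7 CPM, a log2 fold change of -0.21 with an SE of 0.12 (edgeR adjusted p = 0.267). These counts are summed over the whole gene, exons outside the deleted region included, and so do not check the deletion. No rise with the added plasmid was seen in them, and the species of its Axin1 is not given in the sources used here. Directions below rest on the labels. Total counts ran from 11232951 to 15263761 in the parental and from 12372436 to 26400782 in the restored-labelled libraries. All 10 hepatocyte markers reached 1 CPM in at least 1 library, with a summed level of 24641 to 28814 CPM in the parental and 20622 to 24144 CPM in the restored-labelled libraries. Of other cell types' markers, 2 of 5 fibroblast genes, 1 of 5 leukocyte genes (LYZ) and 1 of 4 endothelial genes (PECAM1) reached 1 CPM in any library, and CD3E was at 0 throughout. Summed over each list, the parental and restored-labelled libraries held 2.67 to 3.15 and 1.18 to 4.59 CPM of fibroblast genes, 421 to 949 and 672 to 919.6 CPM of leukocyte genes, and 4.58 to 6.77 and 34.1 to 58.5 CPM of endothelial genes. Parental replicate 1 stood apart from the other parental libraries in the genes described here, and results are given with and without it.

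The promoters of 8 members are shown because these genes carry the results that follow. ORC3, CDC6, POLA1, LIG1 and TOP2A passed the test between the groups, and TYMS, RRM2 and RFC3 varied most among the parental libraries. Each sequence is the RefSeq promoter on GRCh38.p14 from 170 bases before to 30 after the annotated start, read along the gene. Capitals mark letters of 3 elements of cell-cycle promoters, on either strand: the E2F letters TTTCCCGC, TTTCGCGC, TTTGCCGC or TTTGGCGC, the CHR letters TTTGAA or TTCGAA, and the CCAAT box. ORC3 is chr6:87589965-87590164 (plus strand), CDC6 chr17:40287709-40287908 (plus), POLA1 chrX:24693748-24693947 (plus), LIG1 chr19:48170315-48170514 (minus), TOP2A chr17:40417867-40418066 (minus), TYMS chr18:657483-657682 (plus), RRM2 chr2:10122569-10122768 (plus) and RFC3 chr13:33817979-33818178 (plus).
ORC3: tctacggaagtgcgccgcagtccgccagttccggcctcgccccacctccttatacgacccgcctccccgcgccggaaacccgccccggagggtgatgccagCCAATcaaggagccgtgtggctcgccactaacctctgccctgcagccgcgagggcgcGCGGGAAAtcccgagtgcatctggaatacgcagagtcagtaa
CDC6: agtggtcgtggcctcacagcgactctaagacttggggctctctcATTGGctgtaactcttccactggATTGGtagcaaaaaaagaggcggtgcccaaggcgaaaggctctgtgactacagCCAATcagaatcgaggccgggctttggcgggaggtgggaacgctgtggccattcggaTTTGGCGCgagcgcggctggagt
POLA1: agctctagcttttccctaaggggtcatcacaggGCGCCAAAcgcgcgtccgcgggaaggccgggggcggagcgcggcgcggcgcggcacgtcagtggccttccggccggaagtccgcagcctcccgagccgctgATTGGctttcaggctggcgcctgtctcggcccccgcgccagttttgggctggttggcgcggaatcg
LIG1: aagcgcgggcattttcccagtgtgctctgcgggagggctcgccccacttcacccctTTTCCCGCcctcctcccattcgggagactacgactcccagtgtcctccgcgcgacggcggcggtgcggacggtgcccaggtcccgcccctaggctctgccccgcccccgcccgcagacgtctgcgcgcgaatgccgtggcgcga
TOP2A: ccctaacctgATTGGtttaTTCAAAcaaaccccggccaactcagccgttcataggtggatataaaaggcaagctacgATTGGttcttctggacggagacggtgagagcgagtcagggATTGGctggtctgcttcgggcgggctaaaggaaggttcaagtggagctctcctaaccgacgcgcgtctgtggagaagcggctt
TYMS: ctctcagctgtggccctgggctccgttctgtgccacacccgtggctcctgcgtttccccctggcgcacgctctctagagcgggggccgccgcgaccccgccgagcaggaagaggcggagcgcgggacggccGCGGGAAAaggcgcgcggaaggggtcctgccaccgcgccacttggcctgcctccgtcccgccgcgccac
RRM2: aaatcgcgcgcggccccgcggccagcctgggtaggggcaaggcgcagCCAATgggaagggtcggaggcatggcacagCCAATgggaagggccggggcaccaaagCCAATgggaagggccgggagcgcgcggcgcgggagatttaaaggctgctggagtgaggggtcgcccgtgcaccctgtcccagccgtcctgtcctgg
RFC3: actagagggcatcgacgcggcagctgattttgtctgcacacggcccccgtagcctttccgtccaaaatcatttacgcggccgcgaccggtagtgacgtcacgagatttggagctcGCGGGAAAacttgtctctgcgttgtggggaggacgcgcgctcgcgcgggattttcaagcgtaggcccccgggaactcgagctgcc

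Of the 8 windows shown, 6 hold E2F letters: ORC3, CDC6, POLA1, LIG1, TYMS and RFC3. In TOP2A the capitals are CCAAT boxes, all read on the opposite strand, and 1 CHR match. RRM2 has CCAAT boxes only, on the gene's own strand. A match is a description of the letters and not of a bound site.

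As a set, these genes differed most among the parental libraries themselves. For each library the median over the 51 genes of log2 CPM minus the gene's mean over all 8 libraries was -0.67, -0.00084, -0.017 and 0.34 in the parental replicates, in order of number, and 0.28, -0.062, 0.067 and 0.13 in the restored-labelled ones. The parental medians thus spanned 1.01 on the log2 scale and the restored-labelled medians 0.34, and the highest and the lowest of the 8 were both parental. Parental replicate 1 was the lowest of the 4 parental libraries in 46 of 51 members, against 38.4% of all tested genes. Parental replicate 4 was the highest of the 4 in 42 of 51 members, against 26.6% of all tested genes. The span of the parental medians was between 0.95 and 1.20 under 5 other scalings or expression filters.

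**Figure D1:**
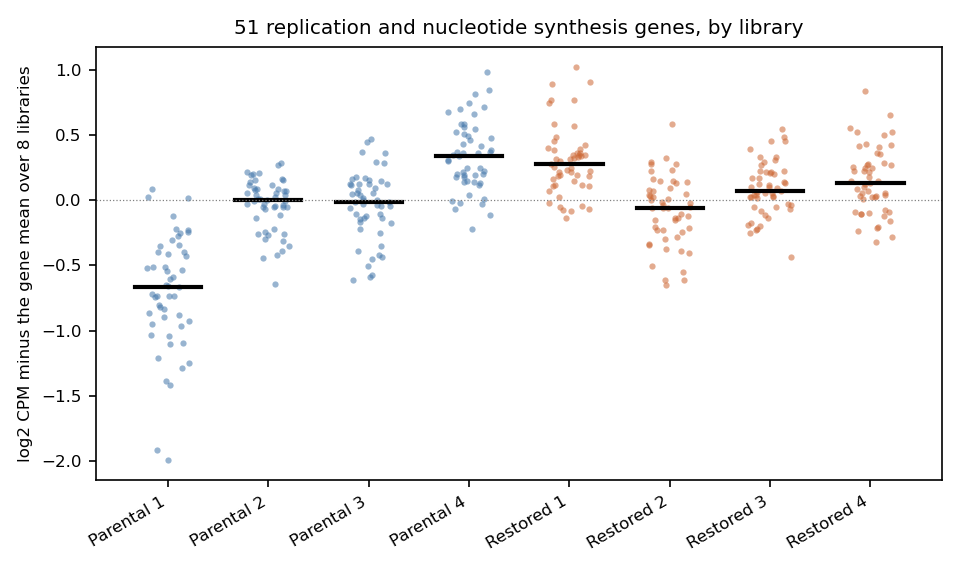
Each point is 1 of the 51 genes in 1 library, as log2 CPM minus that gene's mean over the 8 libraries, and bars are library medians. Parental replicate 1 has the lowest median (-0.67) and parental replicate 4 the highest (0.34), with the 4 restored-labelled medians between them.

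The roles differed in how far the parental libraries lay apart. Nucleotide synthesis genes spanned most, with library medians of -1.51, -0.23, -0.25 and 0.40 in the parental and 0.83, 0.074, 0.27 and 0.39 in the restored-labelled replicates. Origin firing genes came next, with a parental span of 1.30, and all 8 were lowest of the 8 libraries in parental replicate 1. Licensing genes spanned 0.97, polymerases and primase 0.93, the flap, ligase and RPA genes 0.86 and the clamp and its loader 0.73. The E2F factors spanned 0.43 and the topoisomerases 0.29.

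**Figure D2:**
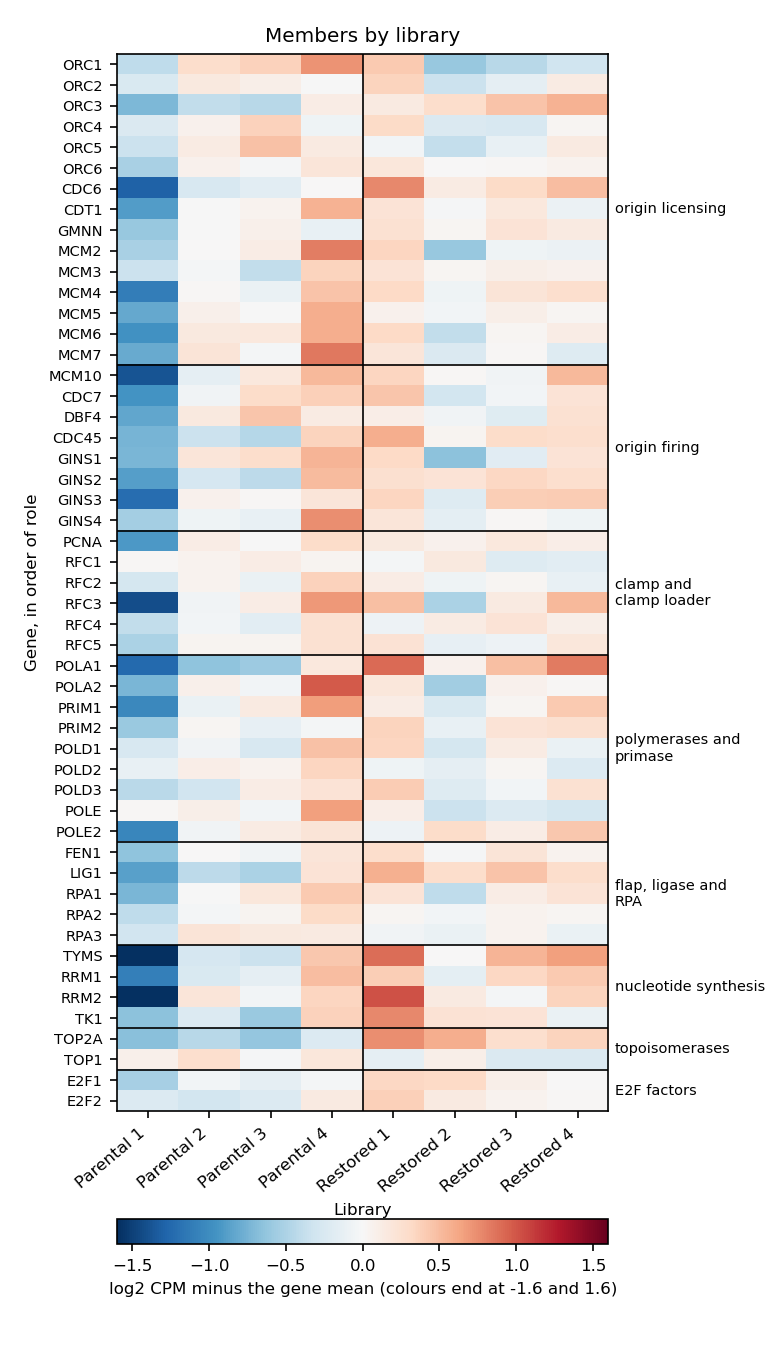
Colour gives log2 CPM minus the gene's mean over 8 libraries for each of the 51 genes, grouped by role, with libraries in columns. The column of parental replicate 1 is blue in nearly every row, and the column of parental replicate 4 mostly red, whereas RFC1, TOP1 and POLE differ little between parental replicate 1 and its neighbours.

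TYMS, which makes thymidylate, had levels of 19.6, 61.7, 58.1 and 99.5 CPM in the parental replicates, a 5.08-fold span, and 137, 74.2, 108 and 117 CPM in the restored-labelled replicates. RRM2, the regulated subunit of ribonucleotide reductase, had 8.28, 38.0, 32.2 and 42.3 CPM in the parental replicates, a 5.11-fold span, and 67.6, 36.7, 32.5 and 42.7 CPM in the restored-labelled ones. RFC3, a subunit of the clamp loader, had 7.74, 20.1, 22.7 and 33.9 CPM in the parental replicates, a 4.38-fold span, and 29.2, 14.7, 23.0 and 29.98 CPM in the restored-labelled ones. In all 3 genes parental replicate 1 was the lowest of the 8 libraries, and the groups overlapped. TYMS shares 967 bases of exon with ENOSF1 on the opposite strand. Since the use of strand in counting is not given in the sources used here, reads of the pair may not be separable. RRM2 shares exon bases with another annotated gene on its own strand, so strand could not separate reads from those bases. At the other end, RFC1, the large subunit of the same loader, had 60.0, 61.7, 64.2 and 61.0 CPM and 58.2, 66.2, 51.5 and 52.9 CPM, a 1.07-fold span among the parental libraries, and TOP1, the topoisomerase that cuts single strands, a 1.22-fold span.

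Over the members, the median of this parental span was 1.11 on the log2 scale, against 0.64 over all tested genes, and 28 of 51 members spanned at least 1 (25.8% of all tested genes did). Mitotic genes had the same order of parental medians, with -1.01, -0.006, -0.12 and 0.48 in the parental and 0.61, -0.044, 0.037 and 0.20 in the restored-labelled replicates over 20 genes. The median of the 6 stress response genes was highest in parental replicate 1, although 1 of the 6 was lowest there, with values of 0.50, 0.26, -0.47 and 0.29 in the parental and 0.40, 0.14, -0.24 and -0.38 in the restored-labelled replicates. Parental replicate 1 also had the lowest scaling factor, 0.897, against 0.969 to 1.06 in the other 7 libraries. The part of these measures in the differences among the parental libraries was not tested.

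Promoter letters of the members were set beside this spread. RefSeq promoters, here 300 bases from 250 before to 50 after the start, were matched for 45 of the 51 members. The E2F letters, searched on both strands, were present in 22 of the 45 (48.9%), against 3.99% of 27305 genes. Those 27305 are all genes with a promoter, expressed here or not, whereas every member passed the expression filter. CCAAT was present in 26 (57.8%, against 39.7%), the CHR letters in 4 (8.89%, against 19.5%) and the TCF letters CTTTGAT, which share TTTGA with the first CHR form, in 0 (against 3.18%). The 22 members with E2F letters had a median parental span of 1.32 on the log2 scale (0.44 to 2.34), and the 23 without had 0.75 (0.098 to 2.34). The groups overlapped over nearly their whole range, and the split is a description with no test.

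Between the groups, 5 of the 51 members rose and 0 fell: TOP2A, POLA1, CDC6, LIG1 and ORC3. These were 9.80% of the members, called by the quasi-likelihood test of edgeR with Benjamini-Hochberg adjustment over all 14289 genes at 0.05, against 19.2% of all tested genes, of which 10.4% were higher and 8.77% lower. At an unadjusted p under 0.05 there were 9 members (17.6%), against 33.5% of all tested genes. The median log2 fold change of the 51 was 0.11, with 34 positive and 17 negative values, against a median of 0.0026 over all genes. Without parental replicate 1 the median was -0.05, with 23 positive and 28 negative values, and the same 5 genes passed, against 24.1% of all tested genes in that fit. Without parental replicate 4 the median was 0.30 and 9 members passed, the added ones being CDC45, GINS2, TYMS and TK1. That is 17.6% of the members, against 14.7% of all tested genes in that fit. The direction of the set's median therefore rests on which parental libraries are included.

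**Figure D3:**
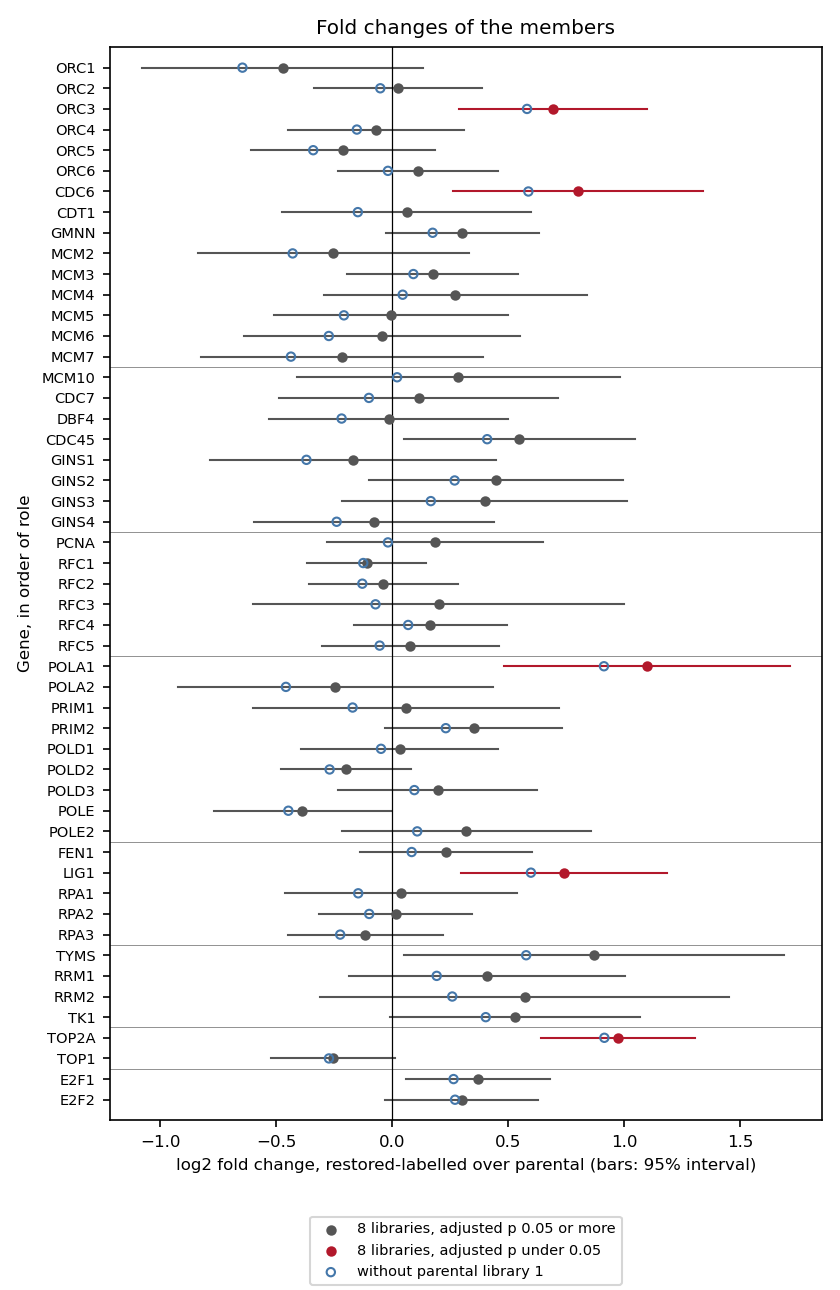
Filled points are log2 fold changes over all 8 libraries with 95% intervals (red: adjusted p under 0.05), and open circles the same without parental replicate 1. The 5 red points lie between 0.69 and 1.10, and without parental replicate 1 nearly every value moves to the left.

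TOP2A, the topoisomerase that passes one double strand through another (chromosome 17, 40388516 to 40417950, minus strand in GRCh38), was the best separated member. It had 155, 181, 161 and 212 CPM in the parental and 411, 369, 296 and 315 CPM in the restored-labelled replicates, so that every restored-labelled library was above every parental one. The means were 177 ± 25.6 and 348 ± 52.4 CPM (SD, n = 4 each). The log2 fold change was 0.97 with an SE of 0.15 (edgeR adjusted p = 0.00173). TOP2A varied less among the parental libraries than most members, with a 1.36-fold span. It passed the test under all 18 alternatives, with log2 fold changes from 0.83 to 1.07.

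POLA1, the catalytic subunit of the polymerase that starts each new strand (chromosome X, 24693919 to 24996986), had the largest fold change. Its level was 12.5, 19.0, 20.0 and 33.6 CPM in the parental and 55.9, 31.4, 41.7 and 53.1 CPM in the restored-labelled replicates, with parental replicate 4 above restored-labelled replicate 2. The log2 fold change was 1.10 with an SE of 0.28 (edgeR adjusted p = 0.0208). The other subunits of the same enzyme did not pass the test. POLA2, the B subunit, had means of 23.2 ± 11.8 and 19.6 ± 4.03 CPM (SD, n = 4 each), PRIM1 11.9 ± 5.35 and 12.4 ± 2.36 CPM, and PRIM2 17.5 ± 3.18 and 22.3 ± 3.07 CPM.

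LIG1, the ligase that seals Okazaki fragments (chromosome 19, 48115445 to 48170603, minus strand), had 32.2, 44.1, 41.5 and 68.3 CPM in the parental and 87.2, 71.5, 80.5 and 71.6 CPM in the restored-labelled replicates. The groups did not overlap, and the log2 fold change was 0.74 with an SE of 0.20 (edgeR adjusted p = 0.0273). CDC6, which loads the helicase together with the origin recognition complex (chromosome 17, 40287633 to 40304657), had 26.3, 53.8, 57.3 and 65.0 CPM and 110.2, 71.0, 80.1 and 91.3 CPM. The groups did not overlap here either, and the log2 fold change was 0.80 with an SE of 0.24 (edgeR adjusted p = 0.0424). ORC3, a subunit of the origin recognition complex (chromosome 6, 87590067 to 87667453), had 18.5, 23.4, 22.5 and 33.2 CPM and 33.9, 37.1, 41.9 and 45.0 CPM, again without overlap. Its log2 fold change was 0.69 with an SE of 0.18 (edgeR adjusted p = 0.0242).

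Values that do not overlap between the groups were found in 5 members, all higher in the restored-labelled libraries, against 23.9% of all tested genes (12.7% higher and 11.2% lower). They were ORC3, CDC6, LIG1, TOP2A and E2F1. E2F1, an activating transcription factor, had 52.0, 73.0, 68.4 and 73.8 CPM and 94.6, 94.0, 80.7 and 75.7 CPM, with a log2 fold change of 0.37 (SE 0.14) that did not pass the test (edgeR adjusted p = 0.0930).

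**Figure D4:**
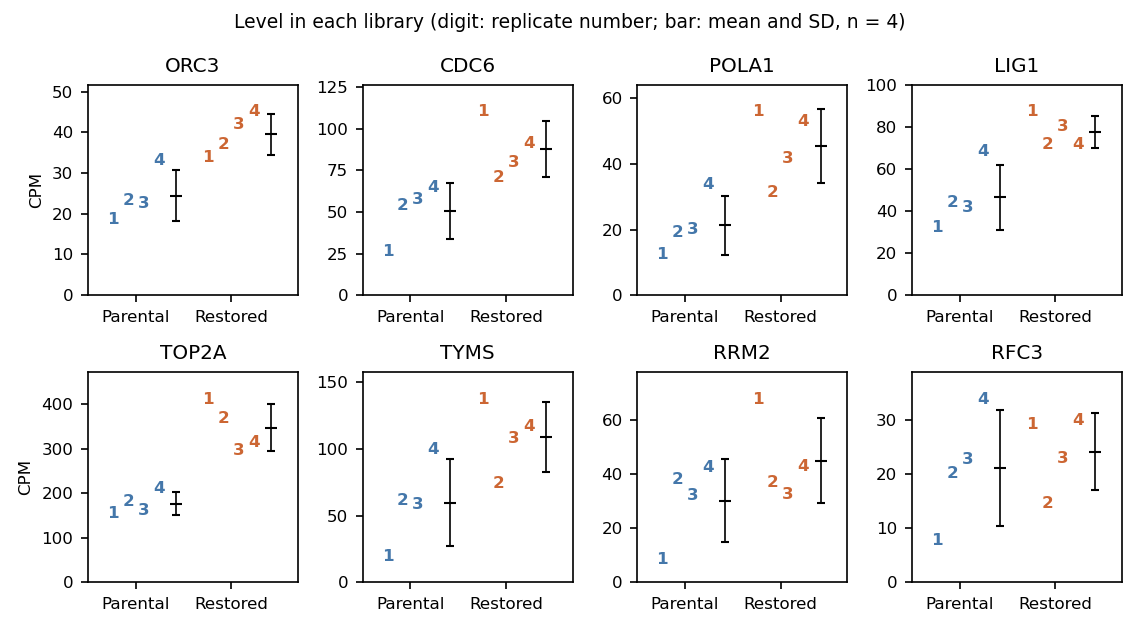
CPM in each library for the 5 genes that passed the test and the 3 with the widest parental span; digits are replicate numbers and bars the mean and SD (n = 4). In TOP2A, ORC3, CDC6 and LIG1 the groups do not overlap, whereas RRM2 and RFC3 overlap widely.

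Apart from TOP2A, the calls depended on which libraries were included. Without parental replicate 2, parental replicate 3 or restored-labelled replicate 4, TOP2A alone passed. The share of all tested genes called in those fits was 10.5%, 14.0% and 9.71%, against 19.2% with all 8 libraries. In the same fits POLA1 had log2 fold changes of 1.04, 1.06 and 1.02 with edgeR adjusted p of 0.0655, 0.0515 and 0.0658. Over the same 3 exclusions ORC3 was 0.67, 0.65 and 0.63, CDC6 0.83, 0.86 and 0.79, and LIG1 0.71, 0.68 and 0.78. Without restored-labelled replicate 1, CDC6 (0.67, edgeR adjusted p = 0.0876) and LIG1 (0.68, edgeR adjusted p = 0.0510) did not pass. Without restored-labelled replicate 3, ORC3 (0.66), CDC6 (0.84) and LIG1 (0.72) did not pass, with edgeR adjusted p of 0.0695, 0.0781 and 0.0718. With total counts as the only scaling CDC6 was 0.87 (edgeR adjusted p = 0.0510).

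Among the 15 origin licensing genes, 2 rose, CDC6 and ORC3, and 0 fell (13.3%, against 19.2% of all tested genes). The other 5 subunits of the origin recognition complex did not pass the test, and ORC1, its largest subunit, had the lowest fold change of all members. Its level was 10.1, 16.4, 17.3 and 22.1 CPM in the parental and 18.0, 8.75, 9.86 and 10.7 CPM in the restored-labelled replicates. The log2 fold change was -0.47 with an SE of 0.28 (edgeR adjusted p = 0.256). ORC1 thus was low in restored-labelled replicates 2 to 4 and not in replicate 1. CDT1, the helicase loading factor, averaged 36.3 ± 13.8 and 38.0 ± 3.92 CPM (SD, n = 4 each), and GMNN, its inhibitor geminin, 54.6 ± 10.6 and 67.3 ± 4.23 CPM.

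The 6 helicase subunits did not pass the test, and all 6 were highest in parental replicate 4. MCM2 had 41.4, 59.8, 64.7 and 104 CPM in the parental and 75.1, 38.9, 56.7 and 55.7 CPM in the restored-labelled replicates. MCM3 had 183, 227, 177 and 299 CPM and 270.3, 238, 248 and 243 CPM. MCM4 had 62.7, 137, 125 and 185 CPM and 169, 129, 155 and 163 CPM. The lowest of the 8 libraries was restored-labelled replicate 2 for MCM2, parental replicate 3 for MCM3 and parental replicate 1 for the other 4. MCM5 had 48.9, 91.9, 86.3 and 129.5 CPM and 90.9, 83.5, 92.5 and 88.5 CPM. MCM6 had 36.5, 79.6, 80.1 and 107 CPM and 88.9, 54.6, 72.8 and 77.9 CPM. MCM7 had 123, 248, 211 and 387 CPM and 246, 184, 218 and 187 CPM. Their log2 fold changes were -0.25 for MCM2 (95% interval -0.84 to 0.33), 0.17 for MCM3 (-0.19 to 0.54), 0.27 for MCM4 (-0.29 to 0.84), -0.0057 for MCM5 (-0.51 to 0.50), -0.043 for MCM6 (-0.64 to 0.55) and -0.22 for MCM7 (-0.82 to 0.39). MCM2 and MCM7 each share exon bases with a gene on the opposite strand, TPRA1 and AP4M1.

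None of the 8 origin firing genes passed the test, against 19.2% of all tested genes. An unadjusted p under 0.05 was found in 33.5% of all tested genes and in 1 of the 8. This was CDC45, the helicase cofactor, with 14.2, 18.8, 17.5 and 30.8 CPM in the parental and 35.8, 24.7, 29.3 and 28.8 CPM in the restored-labelled replicates and a log2 fold change of 0.55 with an SE of 0.23 (edgeR adjusted p = 0.116). Without parental replicate 4 it was 0.82 (edgeR adjusted p = 0.0161). GINS2, a subunit of the GINS complex named here after its values were seen, had 8.90, 13.7, 12.3 and 23.5 CPM and 19.7, 19.2, 20.8 and 19.9 CPM, the restored-labelled values lying within a narrow range and parental replicate 4 above all of them. MCM10, CDC7, DBF4, GINS1, GINS3 and GINS4 had log2 fold changes between -0.17 and 0.40.

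Clamp and clamp loader genes likewise gave 0 of 6, against 19.2% of all tested genes. RFC4 had the smallest p-value of them, with 33.6, 43.1, 39.4 and 52.5 CPM and 41.8, 48.4, 51.7 and 47.0 CPM and a log2 fold change of 0.16 (edgeR adjusted p = 0.477). PCNA, the sliding clamp, averaged 102 ± 32.3 CPM in the parental and 116 ± 3.78 CPM in the restored-labelled libraries (SD, n = 4 each), and its parental values held a single low library, 55.8, 115, 106 and 130.4 CPM. Of the 9 polymerase and primase genes only POLA1 passed (11.1%, against the same 19.2%). POLE, the catalytic subunit of the leading strand polymerase, had 93.4, 98.2, 89.4 and 145 CPM and 99.1, 72.2, 78.8 and 75.4 CPM and a log2 fold change of -0.39 with an SE of 0.17 (edgeR adjusted p = 0.143).

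The 4 nucleotide synthesis genes all had positive fold changes and none passed the test, against 19.2% of all tested genes. TYMS had a log2 fold change of 0.87 with an SE of 0.37 (edgeR adjusted p = 0.128) and RRM2 one of 0.57 with an SE of 0.40 (edgeR adjusted p = 0.347), from the levels given above. RRM1, the large subunit of ribonucleotide reductase, had 33.5, 60.6, 65.0 and 101 CPM and 94.1, 64.6, 90.3 and 96.1 CPM, with a log2 fold change of 0.41 (95% interval -0.19 to 1.00). TK1, the thymidine salvage kinase, had 31.0, 42.04, 32.5 and 63.1 CPM and 83.5, 57.4, 56.8 and 45.6 CPM, with a log2 fold change of 0.53 (95% interval -0.012 to 1.07). Restored-labelled replicate 1 was the highest of the 8 libraries in TYMS, RRM2 and TK1. Without parental replicate 1 the values were 0.58 for TYMS, 0.19 for RRM1, 0.26 for RRM2 and 0.40 for TK1. Without parental replicate 4, TYMS (1.23, edgeR adjusted p = 0.0437) and TK1 (0.79, edgeR adjusted p = 0.0352) passed, and TYMS also did so without an expression filter (0.89, edgeR adjusted p = 0.00484).

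Leaving out both parental replicate 1 and restored-labelled replicate 1, 8 members passed: the same 5 higher, and ORC1, MCM2 and POLE lower, at log2 fold changes of -0.92, -0.59 and -0.55 (edgeR adjusted p of 0.0015, 0.0413 and 0.0214). The share of all tested genes called was 32.3% in that fit, and the members' median was -0.10.

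Levels per kilobase of annotated exon place the members on 1 scale. PCNA (69.2 CPM per kb parental, 78.6 restored-labelled), MCM3 (60.7 and 68.5) and MCM7 (55.3 and 47.6) were the most abundant in the parental libraries, and GINS3 (1.79 and 2.35) was the least. TOP2A stood at 27.5 and 54.0 CPM per kb, which put it above MCM7 in the restored-labelled and below it in the parental libraries. POLA1 stood at 3.36 and 7.18 CPM per kb, beside 4.05 and 3.42 for POLA2.

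Related genes outside the list were examined by counts. Of 29 other replication and fork genes tested, 2 rose and 0 fell (6.90%, against 19.2% of all tested genes), with a median log2 fold change of 0.19. Without parental replicate 1, where 24.1% of all tested genes passed, there were 3 higher and 1 lower, with a median of 0.056. With all libraries they were DONSON, a replication fork protein, at 27.2, 33.9, 32.1 and 37.9 CPM in the parental and 70.2, 62.4, 62.2 and 69.5 CPM in the restored-labelled replicates (1.01, edgeR adjusted p = 0.000634), and CHAF1B, a subunit of the histone chaperone that follows the fork, at 22.2, 26.5, 27.1 and 39.5 CPM and 52.6, 42.2, 45.0 and 46.2 CPM (0.69, edgeR adjusted p = 0.0210). CHAF1B did not pass without parental replicate 2 or 3 or restored-labelled replicate 3 or 4 (0.65 to 0.71, edgeR adjusted p from 0.0512 to 0.0693).

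Of 28 other nucleotide synthesis genes, 4 rose and 5 fell, 32.1% of them against 19.2% of all genes, with a median of -0.08. PRPS2, which makes the ribose phosphate donor of nucleotide synthesis, rose from 8.19, 7.92, 9.71 and 9.02 CPM in the parental to 23.7, 21.2, 25.0 and 32.0 CPM in the restored-labelled replicates, a log2 fold change of 1.55 (edgeR adjusted p = 0.000229). IMPDH2, the rate-limiting enzyme of guanine nucleotide synthesis, had 231, 239, 249 and 246 CPM and 148, 166, 165 and 153 CPM (-0.61, edgeR adjusted p = 0.00333). ATIC, which completes the purine ring, had 359, 429, 427 and 394 CPM and 283, 269, 256 and 239.9 CPM (-0.62, edgeR adjusted p = 0.00565). In each of these 3 the groups did not overlap. The rest that passed, named after their values were seen, were DUT, RRM2B and SAMHD1, higher, and CAD, PAICS and SHMT2, lower. Without parental replicate 1, SAMHD1 did not pass (edgeR adjusted p = 0.0529) and the list gave 3 higher and 5 lower, against 24.1% of all tested genes in that fit. Without both first replicates the list gave 4 higher and 9 lower, against 32.3% of all tested genes in that fit.

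Among E2F and pocket protein genes, 1 of 11 rose and 1 fell (18.2%, against 19.2% of all tested genes). Without both first replicates, where 32.3% of all tested genes passed, 1 was higher and 4 lower. RBL2, the pocket protein p130 of resting cells, had a log2 fold change of 0.94 (edgeR adjusted p = 0.0310), and E2F4, its repressor E2F partner, -0.40 (edgeR adjusted p = 0.0375). RBL2 did not pass without parental replicate 2 or 3 or restored-labelled replicate 3 or 4 (0.77 to 0.98, edgeR adjusted p from 0.0563 to 0.103). E2F4 did not pass with total counts only (-0.31), without an expression filter (-0.37), or without any of parental replicates 2 to 4 and restored-labelled replicates 2 to 4 (-0.42 to -0.35). Of 11 genes listed as S-phase cyclins and kinases, 1 rose and 2 fell (27.3%, against 19.2% of all tested genes). Without parental replicate 1, where 24.1% of all tested genes passed, there were 1 higher and 3 lower. Those that passed with all libraries were CCND1, CDK6 and CDK4, which act in G1, before S phase. CCND1, or cyclin D1, had 229.5, 223, 208 and 185 CPM and 312, 338, 246 and 277 CPM (0.47, edgeR adjusted p = 0.0328), whereas its kinase partners CDK6 (84.5, 94.1, 108 and 126 CPM and 53.9, 28.9, 34.5 and 44.6 CPM, -1.34, edgeR adjusted p = 0.00143) and CDK4 (289, 267, 286 and 270.3 CPM and 204, 166, 200.4 and 152 CPM, -0.62, edgeR adjusted p = 0.00793) were lower. CCND1 kept its call only without parental replicate 1 or restored-labelled replicate 3, and when any other single library was left out it was 0.40 to 0.50 (edgeR adjusted p from 0.0554 to 0.0804).

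Of 8 growth arrest genes tested, 2 rose and 0 fell (25.0%, against 19.2% of all tested genes), with a median log2 fold change of 0.09. Without parental replicate 1, where 24.1% of all tested genes passed, 3 were higher. CDKN1A, the CDK inhibitor p21, rose from 41.7, 34.0, 39.0 and 35.1 CPM in the parental to 129, 184, 162 and 160.0 CPM in the restored-labelled replicates, a log2 fold change of 2.08 with an SE of 0.14 (edgeR adjusted p = 8.45e-06). BTG1, an antiproliferative factor, had a log2 fold change of 0.64 (edgeR adjusted p = 0.00692). Of 20 mitotic genes 1 rose, KIF20A, a kinesin of cytokinesis (1.05, edgeR adjusted p = 0.0435), and 0 fell (5.00%). Without parental replicate 1 there were 2 higher, against 24.1% of all tested genes. Without both first replicates there were 2 higher and 2 lower, against 32.3% of all tested genes. KIF20A did not pass with total counts only (1.11), or without parental replicate 2 or 3 or any single restored-labelled library (0.91 to 1.11, edgeR adjusted p from 0.0606 to 0.104). The median of the mitotic genes was 0.33 with all libraries, 0.11 without parental replicate 1 and -0.04 without both first replicates.

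Single genes of the marker lists passed the test. Of 10 hepatocyte markers, with a median log2 fold change of -0.10, FGB (2.05) and TTR (1.76) rose and SERPINA1 (-0.64) fell. TTR did not pass with limma-voom (1.62), or without parental replicate 3 or restored-labelled replicate 2, 3 or 4 (1.39 to 1.84), nor SERPINA1 without parental replicate 2 or restored-labelled replicate 3 or 4 (-0.65 to -0.57). PECAM1, an adhesion molecule of endothelial cells, was 5.25, 4.47, 6.50 and 4.51 CPM in the parental and 33.8, 50.7, 49.9 and 58.3 CPM in the restored-labelled replicates (3.22), while the other 3 endothelial markers stayed at 6 counts or fewer in every library. PDGFRB, a growth factor receptor, was lower (-2.87) and at most 2.29 CPM in any library. LYZ, the 1 leukocyte marker tested, did not pass. Of 6 stress response genes, JUN was lower (-0.73, edgeR adjusted p = 0.0358), but not without parental replicate 2 or 4 or restored-labelled replicate 1, 3 or 4 (-0.77 to -0.57, edgeR adjusted p from 0.0507 to 0.108). The part of these lists in the members' differences was not tested.

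The genomic neighbourhood of the 5 genes that rose was examined after their values were seen. CDC6 and TOP2A have starts 130 kb apart on chromosome 17 and share a neighbourhood. Of 33 tested genes lying at least partly within 1 Mb of TOP2A, 14 were higher and 1 lower, with a median log2 fold change of 0.42. The higher ones include CDC6 itself, just as TOP2A is among the higher neighbours of CDC6. Of all tested genes 10.4% were higher and 8.77% lower. Around POLA1 on chromosome X, 6 of 10 were higher and 0 lower, with a median of 0.64. Around LIG1 on chromosome 19, 4 of 56 were higher and 1 lower (median 0.28), and around ORC3 on chromosome 6, 1 of 10 was higher and 1 lower (median 0.19).

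**Figure D5:**
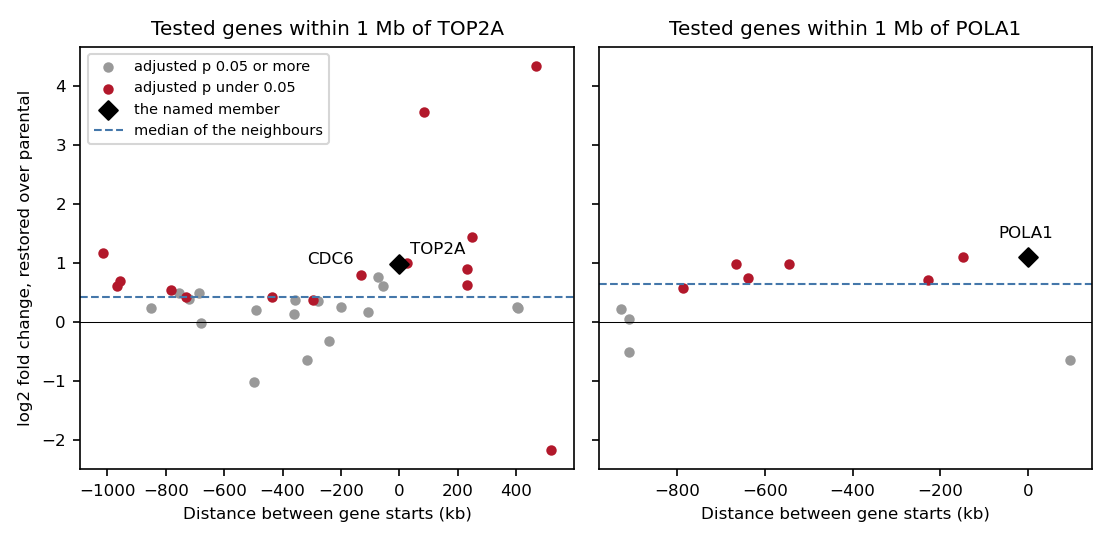
Each point is a tested gene within 1 Mb of TOP2A (33 genes) or POLA1 (10 genes), placed by the distance between gene starts, with its log2 fold change. Dashed lines are the neighbours' medians, 0.42 and 0.64, both above 0.

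Median fold changes of the neighbours were 0.19 to 0.64 for the 5 genes that rose and -0.46 to 0.69 for the other 46 members, whose middle value was -0.10. The median around CDC6, 0.42, was taken as a cut-off after values were seen, so CDC6 meets it by definition. TOP2A shares that neighbourhood and its median, so CDC6 and TOP2A are not separate cases. A neighbourhood median at or above the cut-off was found for 5 of 51 members (CDC6, MCM3, POLA1, TYMS and TOP2A). The same held for 7.25% of the 13901 tested genes with at least 3 neighbours.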

How the data were processed

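RNA sequencing measured gene expression in 8 libraries, grouped by the titles in the labels. Total RNA was taken through column purification and an mRNA library kit, per the labels' protocols. Raw counts, not normalized, are what the authors deposited, in 1 table of genes by libraries. The submitters' processing notes name bcl2fastq, fastp 0.23.1, STAR 2.7.4 and GRCh38; the counting program, its annotation and its use of strand are not given in the sources used here, so reads of overlapping genes may be shared. All 8 columns were matched to samples by the column names in the labels.

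The analysis used edgeR 4.0.16 under R 4.3.3: filterByExpr (minimum count 10, minimum total 15), TMM scaling and the two-sided quasi-likelihood test without covariates, with Benjamini-Hochberg adjustment over 14289 genes and a threshold of 0.05. Intervals are at 95%, and log2 CPM uses a prior count of 2. Positions and exon lengths come from GENCODE 29 on GRCh38, in which 57943 of 58206 identifiers were found, and promoters from RefSeq.

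The members, the lists and the tests were chosen with earlier results of these data known. All members may be named. Values in every library are given for members past the threshold, the smallest p-value of each role, MCM2 to MCM7, the 4 nucleotide synthesis genes and the 3 widest parental spans. Up to 3 genes past the threshold are named from each other list. ORC1, GINS2, POLE, RFC1, PCNA and the neighbours were added after values were seen. Alternatives were DESeq2 1.42.0 size factors and Wald test, upper-quartile and total-count scaling, other filters, limma 3.58.1 voom, the replicate number as a block, a threshold of 0.01, and libraries left out. Tested on simulated data of 14072 genes, edgeR found 53.8% of the 195 that were changed, and 5.41% of its 111 calls were false. Of the genes changed 2-fold in either direction it found 50.8%.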

Additional observations from a re-analysis of the deposited data

Results flagged for a closer look

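In 86 groups of 4 library values, 3 had an extreme library whose gap to the nearest other exceeded Dixon's 95% critical value for the group's range, where chance gives about 1 in 20 groups. POLE was 145 CPM in parental replicate 4, against 89.4 to 98.2 CPM in the other parental libraries. FGB, a fibrinogen chain, was 2257 CPM in restored-labelled replicate 1, against 3452 to 3503 CPM in the other 3. AXIN1 was 37.7 CPM in restored-labelled replicate 4, against 47.6 to 48.2 CPM in the other 3.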

How the results depend on the processing

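The number of members that passed was 4 to 6 under the 3 other scalings, both other filters, the DESeq2 Wald test, limma-voom and the replicate block, all of them higher. Over these settings the share of all tested genes called was 10.6% (no expression filter, 6 members) to 24.5% (DESeq2 Wald test, 5 members). The standing of the members beside that share therefore changed with the setting. At an adjusted p under 0.01 the number of members was 1 (964 of all genes, 6.75%). Leaving out 1 library gave 1 to 9 members, medians of -0.049 (without parental replicate 1) to 0.30 (without parental replicate 4) and 1394 to 3523 genes in all, on fewer libraries. Without parental replicate 1 and restored-labelled replicate 1 there were 8 members, a median of -0.10 and 4623 genes. Total counts alone moved the median of all genes to 0.09 and that of the members to 0.18. Signs turned for members that had not passed. MCM5 was 0.057 with total counts, 0.014 without a filter, 0.070 with limma-voom and 0.071 with the replicate block. MCM6 was 0.024 with total counts, 0.037 with limma-voom and 0.017 with the block. Single left-out libraries gave ranges of -0.43 to 0.035 for MCM2, -0.21 to 0.23 for MCM5, -0.27 to 0.17 for MCM6, -0.44 to 0.10 for MCM7 and -0.073 to 0.53 for RFC3, from parental replicate 1 to parental replicate 4 left out. Without both first replicates RFC3 was -0.17 and RRM2 -0.0070. The causes were not tested. The block, with replicate number as a factor, called 2033 genes and 4 members, with CDC6 at 0.84 and an edgeR adjusted p of 0.0834. No pairing by number was seen: same-numbered deviations correlated at -0.06, 0.0067, -0.03 and 0.23. Differently numbered libraries correlated from -0.43 (parental replicate 4 with restored-labelled replicate 2) to 0.45 (parental replicate 1 with restored-labelled replicate 2). A pairing under other numbers was not tested. The lowest member value was 48 counts (GINS3 in parental replicate 1).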
